A study of Mus musculus with 8 samples.

Results

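Caveolae and the control of transcytosis were followed through 9 mouse genes in microvessels of the developing forebrain: the caveolins Cav1 and Cav2, the cavins Cavin1, Cavin2 and Cavin3, the ATPases Ehd2 and Ehd4, the diaphragm protein Plvap and the lipid transporter Mfsd2a. They were chosen by name, through the transcript accession of each probe, and all their probes were used. This gave 13 probes for 9 of the 21941 genes tested, with 2 probes each for Cav2, Cavin1, Plvap and Ehd4.

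Caveolae are flask-shaped pits of the plasma membrane whose coat is built from caveolins and cavins, and in endothelium they can carry plasma proteins across the cell as transcytotic vesicles. Endothelium of the mature brain keeps few of them, and in mice Mfsd2a, which moves lysophosphatidylcholine carrying docosahexaenoic acid into the brain, is known to hold caveolar transcytosis down. PLVAP forms the diaphragms of caveolae and fenestrae and is known as a marker of brain vessels whose barrier is immature or absent.

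RNA came from microvessels of mouse forebrain at 3 ages, 5 days (P5), 10 days (P10) and adult, with 2 replicates per age, and no age received a treatment per the labels. Strain, sex and the age of the adults were not given in the sources used here. The vessels were freed by Dounce homogenisation, sedimented by density and filtered so that particles under 70 µm were kept. Each of the 8 Agilent arrays compared 2 ages directly, with one RNA in the dye Cy5 and the other in Cy3. Each replicate filled 1 slide of 4 arrays: P5 with adult, P10 with adult, the same pair with the dyes exchanged, and P5 with P10. P5 carried Cy5 on every array that held it. The labels do not say whether the replicates were separate animals or pools, so the p-values reflect no more than how far these samples differ, which may be technical.

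Between 65.2% and 73.3% of the spots that are not controls were well above background in each channel. All 13 probes passed the filter on dim probes and none was saturated. Each was well above background in every channel, except the dimmer Cavin1 probe, which was so in 2 of 4 P5 channels. All 24 genes of an endothelial identity list were tested, and each had some channel well above background at every age. Of all 21941 genes tested, only 537 lacked such a channel at some age. No fibroblast, astrocyte or microglia marker tested lacked one either, so detection does not show which cells the RNA came from.

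Promoters are shown for the members that differed most with age and for Mfsd2a, because the coat genes are set beside each other below. Sequences are those of RefSeq (mouse GRCm38.p6), which held entries for 7 of the 9 members with 9 start sites. They are written 5′ to 3′ on the strand of the gene and end at the base before the transcription start. Capitals mark a match to one of 6 short motifs searched on both strands. The Cav2 promoter (chr6:17280935-17281184, plus strand) and the Cavin1 promoter (chr11:100970616-100970865, minus strand) each hold a GC box, GGGCGG, read on the opposite strand in Cavin1. The Cavin2 promoter (chr1:51288876-51289125, plus strand) holds no GC box and 1 match to the SOX motif AACAAT. The Mfsd2a promoter (chr4:122961189-122961438, minus strand) holds 1 match to the TCF/LEF motif CTTTGA.
Cav2: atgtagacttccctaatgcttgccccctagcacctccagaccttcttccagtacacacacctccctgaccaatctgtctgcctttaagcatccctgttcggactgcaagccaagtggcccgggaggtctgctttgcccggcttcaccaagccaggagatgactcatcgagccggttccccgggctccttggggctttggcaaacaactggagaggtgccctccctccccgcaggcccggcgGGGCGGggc
Cavin1: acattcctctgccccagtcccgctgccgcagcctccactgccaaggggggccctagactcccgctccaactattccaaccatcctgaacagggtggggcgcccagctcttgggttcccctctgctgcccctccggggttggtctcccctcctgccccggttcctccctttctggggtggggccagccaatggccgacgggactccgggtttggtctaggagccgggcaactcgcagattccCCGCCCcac
Cavin2: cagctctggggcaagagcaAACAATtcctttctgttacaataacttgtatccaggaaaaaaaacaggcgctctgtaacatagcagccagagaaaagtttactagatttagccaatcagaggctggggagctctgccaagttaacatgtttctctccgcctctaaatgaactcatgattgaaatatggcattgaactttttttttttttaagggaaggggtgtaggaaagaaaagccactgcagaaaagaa
Mfsd2a: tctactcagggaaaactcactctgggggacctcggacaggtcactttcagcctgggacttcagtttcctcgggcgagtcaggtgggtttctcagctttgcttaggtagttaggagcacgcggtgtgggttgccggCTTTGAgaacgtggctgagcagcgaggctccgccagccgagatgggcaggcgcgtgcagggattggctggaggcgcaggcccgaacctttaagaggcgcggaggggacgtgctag

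The Cavin2 promoter stood apart from the other 8 in base composition. It was 40.4% G and C with 2 CpG pairs, whereas the others were 58% to 67.6% G and C with 10 to 21 CpG pairs, and the median of 32851 mouse promoters of the same length was 52.4% with 6 CpG pairs. GC boxes occurred in 6 of the 9 member promoters and in 32.7% of all promoters. The 2 start sites of Cavin1 lie 2 bases apart, so the same box is counted in both of its promoters. A TATA box, TATAAA, occurred in 1 of the Cav1 promoters and in 12.4% of all. The SOX motif occurred in 9.42% of all promoters and the TCF/LEF motif in 13.8%. The ETS core CGGAAG (13.6% of all promoters) and the KLF motif CACACCC (6.93%) occurred in none of the 9. No 2 of these motifs overlapped in the sequences shown.

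Genes of the caveolar coat and its neck, together with Mfsd2a, were lower at P5 than in adults, and by P10 most of them lay nearer to adult than to P5. In P5 against adult microvessels, 8 of the 9 members were lower, none was higher, and Plvap did not pass the test (limma, Benjamini-Hochberg adjusted p below 0.05). Over all genes tested, 53.1% were called in this comparison, 23% lower and 30.1% higher. The members' median log2 ratio was -1.35, against 0.09 over all genes. The differences ran from 7.94-fold for Cavin2 to 1.73-fold for Cavin3. With median centring they were larger for 5 of them by more than 1.5-fold: the log2 ratios were -3.69 for Cavin2, -2.91 for Cavin1, -2.07 for Ehd4, -1.47 for Mfsd2a and -1.43 for Cavin3. Endothelial identity genes moved the same way, 23 of 24 lower with a median log2 ratio at -1.63 (replicates -1.55 and -1.66), and in microvessel RNA fewer endothelial cells and less RNA per cell cannot be told apart.

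From P5 to P10 every member rose. All 9 were lower at P5 than at P10, at a median log2 ratio of -1.38 against 0.06 over all genes, of which 41.2% were called (18.2% lower and 23% higher). When the background fit kept 11 spots with faulty background values, 0 members and 0 of all 21941 genes passed in limma. The members' adjusted p-values ran from 0.0534 to 0.0982. Unadjusted p-values were below 0.05 for all 9 members and for 7066 genes. P10 and adult microvessels differed less. In that comparison Cavin2 and Cav2 were still lower, Plvap was higher, and 6 members did not pass the test, with a median of -0.14 against 0.01 over all genes, of which 17.5% were called (9.1% lower and 8.42% higher). These comparisons share their samples, so the counts are not independent of one another.

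**Figure D1:**
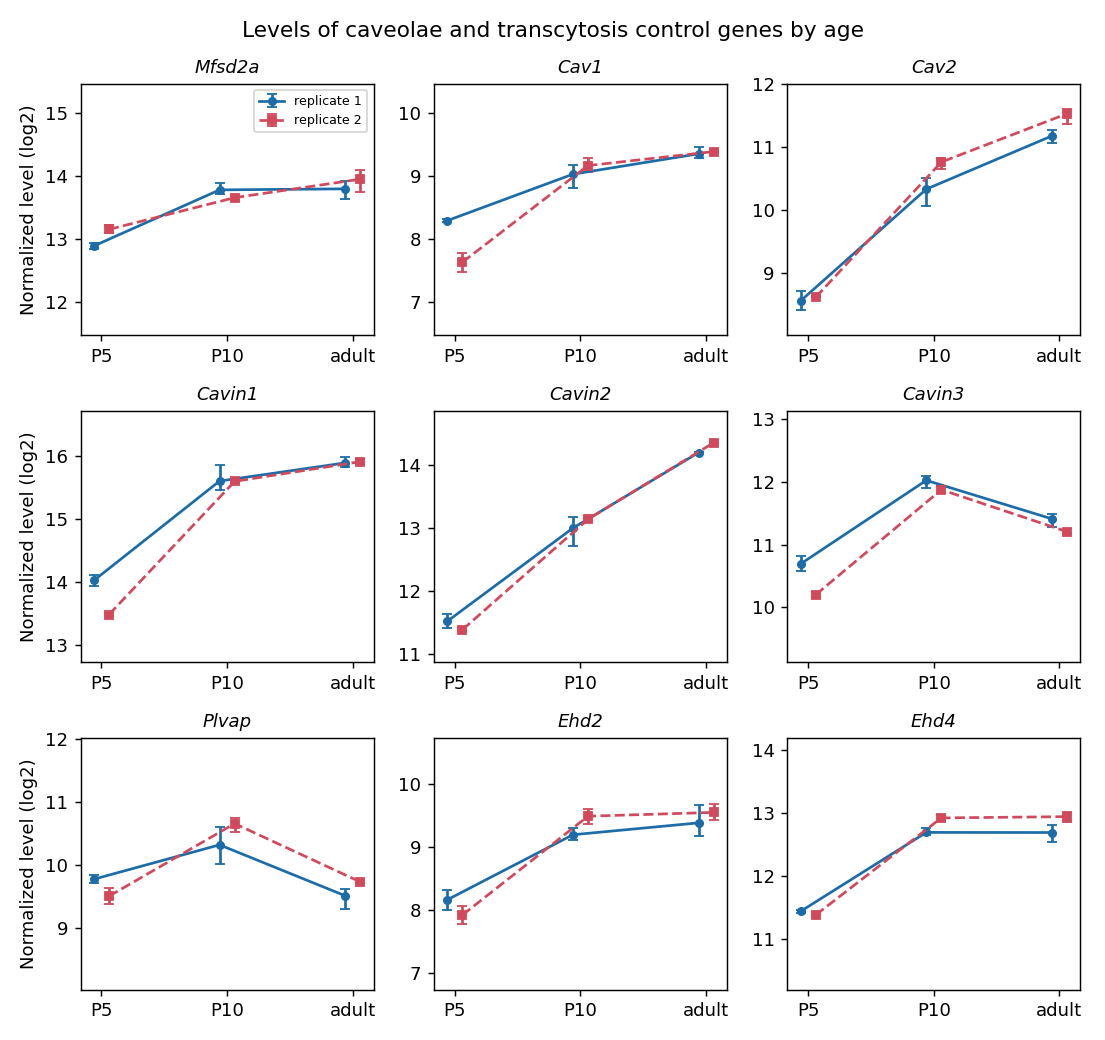
Normalized level (log2) of the brighter probe of each member at P5, P10 and adult, with 1 line per replicate. Points are means over the 2 or 3 channels that held that RNA and bars run from the lowest to the highest channel, so that Cavin2 can be followed from 11.52 and 11.38 at P5 to 14.20 and 14.35 in adults while Plvap peaks at P10. Levels are not corrected for dye: P5 points come from Cy5 alone and later points from both dyes. Axes start at different values because levels of different probes are not compared.

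Caveolin-1 is the scaffold without which endothelial caveolae do not form, and caveolin-2 is its partner in the coat. Cav2 had normalized levels (log2) of 8.55 and 8.61 at P5 in replicates 1 and 2, 10.33 and 10.76 at P10, and 11.17 and 11.53 in adults. The 3 ages did not overlap and followed the order of age. Cav2 was 6.46-fold lower at P5 than in adults (log2 ratio -2.69 ± 0.10 SE, n = 2, limma adjusted p = 0.000525) and 1.73-fold lower at P10 (-0.79 ± 0.10, adjusted p = 0.0123). The P10 call for Cav2 was lost without the dye-exchanged P10 and adult array of replicate 1 and the P5 and P10 array of replicate 2 (-0.57, adjusted p = 0.218), which held spots with faulty background values. It was also lost, at ratios of similar or larger size, with median centring (-0.79, adjusted p = 0.0685) and with the background fit on all spots (-0.90, adjusted p = 0.102).

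Cav1 had levels of 8.30 and 7.64 at P5, 9.04 and 9.17 at P10, and 9.36 and 9.39 in adults. The P5 values lay below all others and were wider apart than at any later age. Cav1 was 2.54-fold lower at P5 than in adults (log2 ratio -1.34 ± 0.24, limma adjusted p = 0.00936), with ratios of -0.98 and -1.71 in the replicates. At P10 it was not called against adult (-0.23 ± 0.24, adjusted p = 0.6). Cav1 had the largest standard error of the 9 members, and its single probe was among the dimmer ones, at a mean log2 intensity of 8.94.

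Cavins are the peripheral coat proteins, of which Cavin1 is needed for caveolae to form and Cavin2 and Cavin3 join it in the coat. Cavin1 had levels of 14.02 and 13.48 at P5, 15.60 and 15.60 at P10, and 15.89 and 15.91 in adults. P5 was far below the later ages, which lay close together. Cavin1 was 4.70-fold lower at P5 than in adults (log2 ratio -2.23 ± 0.15, limma adjusted p = 0.00101) and was not called at P10 (-0.27 ± 0.15, adjusted p = 0.308).

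Cavin2 had levels of 11.52 and 11.38 at P5, 13.00 and 13.14 at P10, and 14.20 and 14.35 in adults. It climbed at both steps, and no ages overlapped. The ratio of P5 to adult was -2.99 ± 0.09 on the log2 scale (7.94-fold lower, limma adjusted p = 0.000525), with -2.97 and -3.01 in the replicates, the most negative of the 9. Cavin2 was also lower at P10, by 2.31-fold (-1.21 ± 0.09, adjusted p = 0.00389). Among the 9 members it was the only one called lower at P10 under each of the 9 alternative analyses, with ratios from -1.21 to -1.05.

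Cavin3 took another course. Its levels were 10.69 and 10.20 at P5, 12.02 and 11.87 at P10, and 11.41 and 11.20 in adults. P10 was the highest age and P5 the lowest, with no overlap. Cavin3 was 1.73-fold lower at P5 than in adults (log2 ratio -0.79 ± 0.14, limma adjusted p = 0.0106), with -0.60 and -0.98 in the replicates, and 2.62-fold lower at P5 than at P10 (-1.39 ± 0.14, adjusted p = 0.00613). The P10 excess over adult, 0.60 ± 0.14 with 0.56 and 0.64 in the replicates, missed the threshold (adjusted p = 0.0519). It passed in a fit with no replicate block and no dye term (0.59, adjusted p = 0.00931), which counts arrays of the same RNA as if they were further replicates, and narrowly when p-values were adjusted over all probes rather than genes (adjusted p = 0.0496).

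EHD proteins are ATPases that bend membranes: EHD2 sits at the neck of caveolae and holds them at the cell surface, and EHD4 is a relative that acts in endosomal recycling. Ehd4 had levels of 11.44 and 11.38 at P5, 12.69 and 12.93 at P10, and 12.69 and 12.95 in adults. P5 lay below the later ages, which overlapped. Ehd4 was 2.63-fold lower at P5 than in adults (log2 ratio -1.39 ± 0.12, limma adjusted p = 0.00146), and the P10 ratio to adult was -0.01 ± 0.12 (adjusted p = 0.961).

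Ehd2 had levels of 8.16 and 7.92 at P5, 9.20 and 9.49 at P10, and 9.39 and 9.55 in adults. Here too P5 stood below and the later ages overlapped. Ehd2 was 2.56-fold lower at P5 than in adults (log2 ratio -1.35 ± 0.12, limma adjusted p = 0.00152), with -1.36 and -1.34 in the replicates. Its P10 ratio to adult was -0.14 ± 0.12 (adjusted p = 0.488).

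Plvap was the member whose P5 and adult levels were alike in range. Its levels were 9.78 and 9.51 at P5, 10.32 and 10.66 at P10, and 9.52 and 9.74 in adults. P5 and adult overlapped, and both P10 values lay above all others. The P5 ratio to adult was 0.09 ± 0.16 on the log2 scale, with 0.33 in replicate 1 and -0.15 in replicate 2 (limma adjusted p = 0.655), and its sign depended on the processing. Against adult, Plvap was 1.78-fold higher at P10 (0.83 ± 0.16, adjusted p = 0.0318), and against P10 it was 1.67-fold lower at P5 (-0.74 ± 0.16, adjusted p = 0.0238).

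All 4 arrays that paired P10 with adult RNA showed Plvap higher at P10. The log2 ratios of P10 to adult were 0.72 and 0.99 on slide 1, in the original and the exchanged dye orientation, and 0.78 and 1.02 on slide 2. The adjusted p rose to 0.0562 without the array pair with faulty backgrounds (0.75), to 0.0517 with median centring and to 0.103 with the background fit on all spots (0.62). Markers of fibroblasts were also higher at P10 than in adults, 5 of 10 higher and none lower, with a median log2 ratio at 0.85 (replicates 1.09 and 0.67). Choroid plexus and ependymal markers had 3 of 10 higher and 2 lower, at a median of 0.40 (0.85 and 0.08). For scale, the P10 against adult test called 8.42% of the 21941 genes higher, with another 9.1% called lower. The part of fibroblasts, choroid plexus and ependyma in the Plvap result was not tested.

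Mfsd2a, the lipid transporter, had levels of 12.88 and 13.15 at P5, 13.77 and 13.65 at P10, and 13.79 and 13.94 in adults. P5 lay below the later ages. Both P10 values lay just under both adult values, but their single channels overlapped. In replicate 1 the P10 channels reached 13.88 and the adult channels went down to 13.63. Mfsd2a was 1.75-fold lower at P5 than in adults (log2 ratio -0.81 ± 0.14, limma adjusted p = 0.00892), with -0.94 and -0.68 in the replicates. It was 1.60-fold lower at P5 than at P10 (-0.67 ± 0.14, adjusted p = 0.0212), with -0.90 and -0.44 in the replicates. With median centring in place of loess, Mfsd2a came to -1.47 at P5 against both P10 and adult. Between P10 and adult the ratio was -0.14 ± 0.14 (adjusted p = 0.591).

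The log2 difference between P5 and adult gives a scale on which to place P10. By P10, Cavin2 had closed 59.6% of it (60.2% and 59.0% in the replicates) and Cav2 70.7% (68.8% and 72.5%). Ehd4 had closed 99.0% (99.0% and 99.1%) and Cavin1 87.8% (88.0% and 87.7%). For Mfsd2a, Cav1 and Ehd2 the replicates spread widely, from 64.6% to 99.6%, so no order among them is read. Cavin3 overshot the adult level, at 176% (194% and 165%). These shares are descriptions with no test, use the brighter probe, and depend on probe and normalization. The dimmer Cavin1 probe gave log2 ratios to adult of -0.65 at P5 and -0.18 at P10. With median centring, the P5 and P10 ratios to adult were -2.91 and -0.04 for Cavin1 and -3.69 and -1.08 for Cavin2. For Mfsd2a they were -1.47 and 0.0026.

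**Figure D2:**
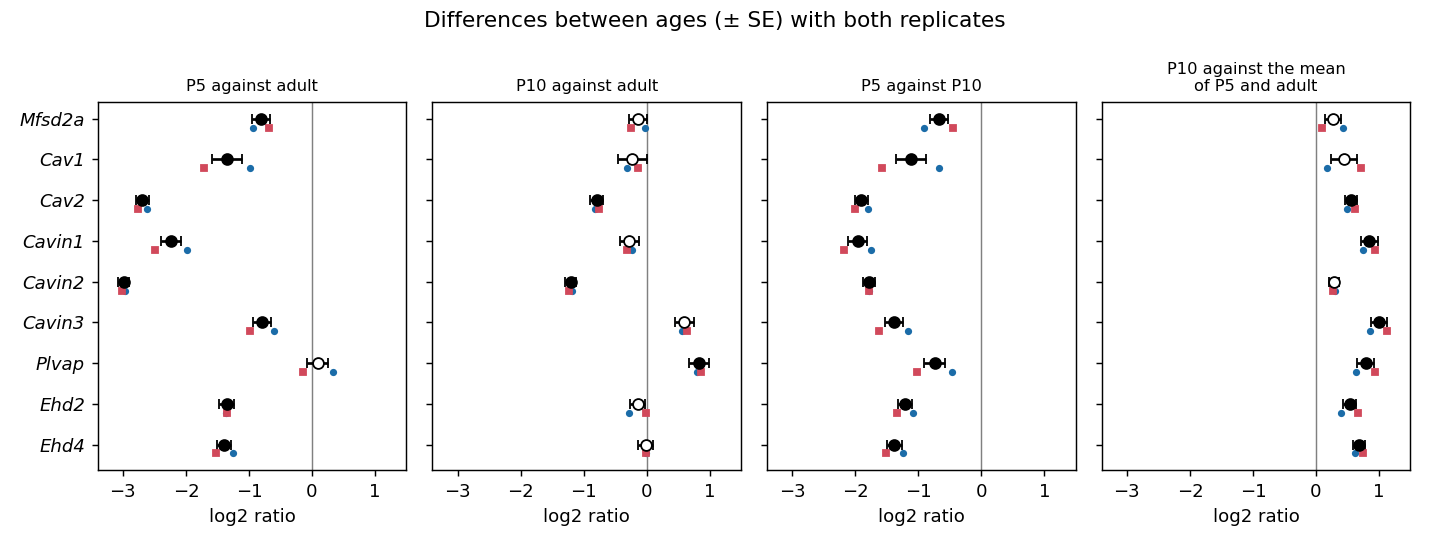
Log2 ratios of the 9 members for each of the 4 contrasts, with the mean ± SE as large circles (filled where the adjusted p was below 0.05) and both replicates as small marks (blue circles replicate 1, red squares replicate 2). At P5 against adult all members but Plvap lie left of 0, from -2.99 for Cavin2 to -0.79 for Cavin3, and at P10 against adult the values gather around 0 apart from Cavin2, Cav2, Cavin3 and Plvap.

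A peak at P10 was looked for by setting P10 against the mean of P5 and adult. Of the 9 members, 6 were higher at P10 in this contrast and none lower, at a median log2 difference of 0.56 against -0.05 over all genes, of which 11.7% were called (6.16% higher and 5.53% lower). P10 exceeded both other ages in both replicates only for Cavin3 (0.99 ± 0.13, limma adjusted p = 0.0192) and Plvap (0.79 ± 0.14, adjusted p = 0.0353). Cavin1 (0.84 ± 0.13), Ehd4 (0.68 ± 0.10), Cav2 (0.56 ± 0.09) and Ehd2 (0.54 ± 0.10) completed the 6, with adjusted p-values from 0.0241 to 0.0378, and in these the P10 ratio to adult was at or below 0. In limma over all probes, the dimmer probes of Cavin1 (0.14, adjusted p = 0.348) and Cav2 (0.34, adjusted p = 0.0869) did not pass. Those of Ehd4 (0.53, adjusted p = 0.0293) and Plvap (0.67, adjusted p = 0.0187) did. The mean of both Cavin1 probes was not called (0.49, adjusted p = 0.0554). Without the array pair with faulty backgrounds, 3 members remained called: Cavin3, Plvap and Cavin1. Over all genes, 1118 of 21785 were called there. With the deposited processed signals 3 members were also called, Cavin3, Cav2 and Ehd4, and 1394 of 21941 genes. Plvap (0.89, adjusted p = 0.0506), Ehd2 (0.71, adjusted p = 0.0513) and Cavin1 (0.77, adjusted p = 0.0714) were not called with these signals. Cavin3 was the only member called under both alternatives. With the faulty spots kept in the background fit, limma called 0 members and 0 genes. An unadjusted p below 0.05 was found there for 6 members and 3388 genes.

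For Cav2, Cavin1 and Ehd4 a second, dimmer probe shared the direction at P5 but not the size. The dimmer Cav2 probe gave log2 ratios of -1.78 ± 0.11 at P5 and -0.55 ± 0.11 at P10 against adult, and both passed the test. The dimmer Cavin1 probe gave only -0.65 ± 0.11 at P5, against -2.23 at the brighter one, and it was near background, at a mean log2 intensity of 6.87 against 15.22. The mean of both Cavin1 probes gave -1.44. For Ehd4 the dimmer probe gave -0.97 ± 0.10 at P5 and 0.04 ± 0.10 at P10. For Plvap it gave -0.08 ± 0.10 at P5, which was not called, and 0.63 ± 0.10 at P10 (limma adjusted p = 0.018 over all probes), so both Plvap probes were higher at P10.

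**Figure D3:**
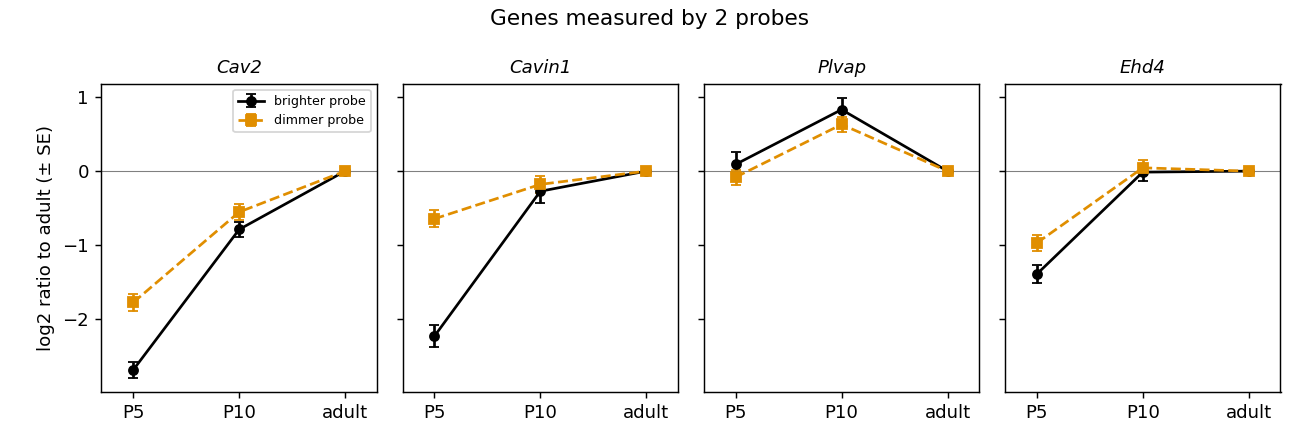
Log2 ratio to adult (mean ± SE) at P5 and P10 for the 4 members with 2 probes, the brighter probe in black circles and the dimmer one in orange squares. Cav2, Cavin1 and Ehd4 fall below 0 at P5 with both probes, by different amounts, and Plvap stands above 0 at P10 with both.

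Since caveolar genes are expressed by endothelium, the members were set beside the endothelial identity list. That list had 23 of 24 genes lower at P5 than in adults, 8 lower and 3 higher at P10, and 24 lower at P5 than at P10. Over all genes, 23%, 9.1% and 18.2% were lower in these comparisons, and 8.42% were higher at P10 than in adults. The list's median log2 ratio to adult was -1.63 at P5 and -0.35 at P10. Within it Ly6c1, a surface protein, and Flt1, a VEGF receptor, were the lowest at P5 (-4.20 and -3.86). For each replicate the list's own median in that replicate was then subtracted from a member's ratio, and the differences below are means over both replicates. Relative to the list at P5, Cavin2 was lower by 1.38, Cav2 by 1.08 and Cavin1 by 0.63 on the log2 scale, and 3, 5 and 6 of the 24 endothelial genes, respectively, lay below them. These positions use the brighter probe of each gene. The dimmer Cavin1 probe (-0.65 at P5) and the mean of both Cavin1 probes (-1.44) lay above the list's median of -1.63. The dimmer Cav2 probe (-1.78) lay below that median, but closer to it than the brighter one. The side on which Cavin1 falls thus depends on the probe, as does the distance of Cav2 from the list.

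The other members sat on average above it. At P5, Plvap was 1.70 above the list (1.88 and 1.51 in the replicates), Cavin3 0.82 (0.96 and 0.68) and Mfsd2a 0.80 (0.62 and 0.98). Ehd4 (0.29 and 0.13) and Ehd2 (0.19 and 0.32) lay close to it, and Cav1 lay above it in replicate 1 and below it in replicate 2 (0.58 and -0.05). All 24 endothelial genes had ratios below that of Plvap, and 21 had ratios below those of Mfsd2a and Cavin3. At P10, Plvap and Cavin3 stood 1.19 and 0.96 above the list and Cavin2 0.85 below it. These positions are descriptions, and no difference between a member and the list was tested.

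**Figure D4:**
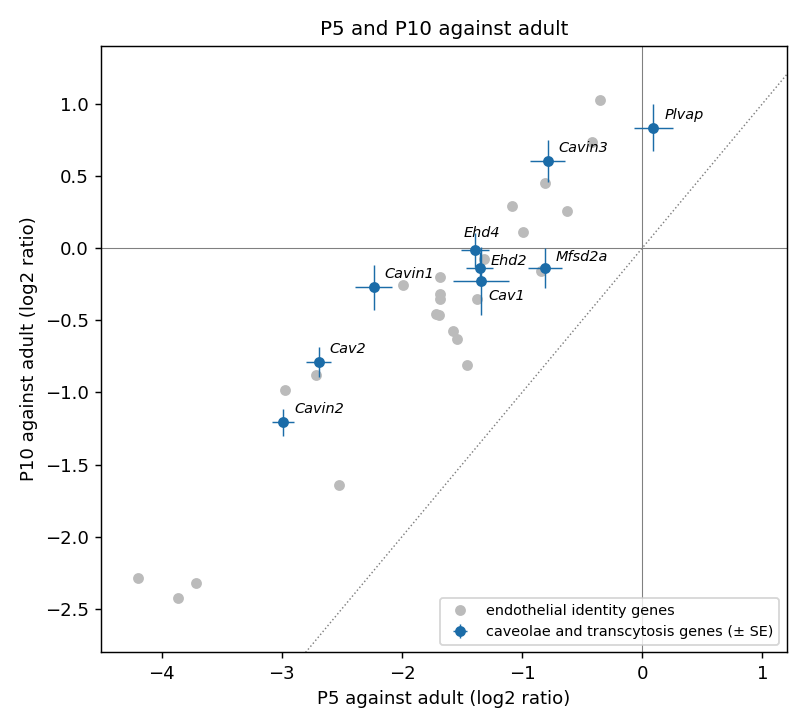
Log2 ratio to adult at P5 (horizontal) and P10 (vertical) for the 9 members (blue, ± SE) and the 24 endothelial identity genes (grey), with the dotted line where the ages are equal. Members and endothelial genes lie above the line, Cavin2 and Cav2 towards the lower left, and Plvap at the right edge of the cloud at 0.09 and 0.83.

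Smooth muscle cells, pericytes and fibroblasts also make caveolae. Pericyte markers had 9 of 11 genes lower at P5 than in adults and none higher (median log2 ratio -1.35, with -1.11 and -1.50 in the replicates). Smooth muscle markers had 6 of 9 lower and none higher (median -1.66, with -1.47 and -1.87), and at P10 the smooth muscle median was -0.02 (-0.09 and 0.06). Fibroblast markers had 6 of 10 higher and 2 lower at P5 (median 0.87, with 1.07 and 0.54). The shares over all genes at P5 against adult were 23% lower and 30.1% higher.

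Markers of blood and of nerve cells were high at P5, where 9 of 9 erythroid markers (median 4.92, with 4.47 and 5.27) and 10 of 10 markers of immature neurons (median 2.25, with 2.24 and 2.17) were above adult. Microglial markers had 4 of 10 higher and none lower (median 0.71, with 0.08 and 1.14 in the replicates). Astrocyte markers had 3 higher and 4 lower of 10 (median -0.43, with -0.47 and -0.15). Myelin markers had 1 higher and 7 lower of 10 (median -1.67, with -1.80 and -1.53). Over all genes, 30.1% were higher and 23% lower in this comparison. The part of all these cell types in the members' ratios was not tested.

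Genes listed as partners of caveolae went both ways. Of 15 partners tested, 6 were lower and 3 higher at P5 than in adults (median log2 ratio -0.12), 2 lower and 2 higher at P10, and 5 lower and 2 higher at P5 than at P10. Over all genes, the shares lower and higher were 23% and 30.1% at P5 against adult, 9.1% and 8.42% at P10 against adult, and 18.2% and 23% at P5 against P10. Lower were Nos3, the endothelial nitric oxide synthase that caveolin-1 binds (-1.46 at P5), and Ehd3, another EHD family ATPase (-1.27). Higher were the fatty acid receptor Cd36 (0.62) and the membrane-bending protein Pacsin1 (0.51), although a second Pacsin1 probe gave -1.10. Of the same family, Pacsin2 was lower at P5 (-1.20, limma adjusted p = 0.00288) and Pacsin3 was not called (0.53).

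Genes of vesicle formation, docking and recycling were more often lower than higher. At P5 against adult, 16 of 26 were lower and 1 higher (median -0.44), at P10 5 were lower and none higher, and at P5 against P10 13 were lower and 3 higher. Over all genes 23%, 9.1% and 18.2% were lower in these comparisons, and 30.1%, 8.42% and 23% were higher. Vamp3, a vesicle SNARE of recycling endosomes (-1.47), and Cltb, a clathrin light chain (-1.27), were the lowest at P5. The SNARE gene Snap23 was higher (1.62, with 1.96 and 1.28 in the replicates), but its other probe gave -0.31.

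Receptors known for transcytosis or uptake were also divided. Of 18, 8 were lower and 6 higher at P5 than in adults (median -0.20), 5 lower and 2 higher at P10, and 7 lower and 3 higher at P5 than at P10. Over all genes, the shares lower and higher were 23% and 30.1% at P5 against adult. They were 9.1% and 8.42% at P10 against adult, and 18.2% and 23% at P5 against P10. Acvrl1, the ALK1 receptor that also takes up low-density lipoprotein, was lower at P5 (-2.83), as was Bsg, the surface protein basigin (-2.45). Vldlr and Lrp8, receptors of the low-density lipoprotein family, were higher (1.49 and 0.97), with 0.23 and -0.16 at their other probes.

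Lipid handling genes beside Mfsd2a also went both ways. Of 20 genes, 10 were higher and 5 lower than in adults (median 0.42), 4 higher and 4 lower at P10, and 7 higher and 4 lower at P5 than at P10. All genes too were more often higher (30.1%) than lower (23%) at P5 than in adults. The fatty acid binding proteins Fabp7 (4.37), known in radial glia and astrocytes, and Fabp5 (2.42) were the highest. Pla2g4a, a phospholipase that releases arachidonic acid (-3.10), and the sphingosine phosphate receptor S1pr1 (-2.14) were the lowest.

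Signals that are known to act on the barrier or on transcytosis (PDGF, laminin, Wnt, SOX, forkhead, TGF-beta and KLF genes) were mostly lower at P5. Of 25, 20 were lower and 2 higher than in adults (median -1.25), 8 lower and 1 higher at P10, and 21 lower and 1 higher at P5 than at P10. The shares lower over all genes were 23%, 9.1% and 18.2%, and the shares higher were 30.1%, 8.42% and 23%. Klf2 and Klf4, factors induced in endothelium by blood flow, were the lowest (-3.35 and -2.87 at P5). Laminin chain Lama4 (0.54) and the Wnt co-receptor Lrp5 (0.38) were higher. Lama4 was also higher at P10 than in adults (1.43, limma adjusted p = 0.00473).

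Genes whose ratios lay nearest to those of 3 members were found by Euclidean distance over 4 log2 ratios, P5 and P10 against adult in both replicates. Nearest to Mfsd2a were Vps13b (distance 0.0446), Brox, Zmat5, Txndc17 and Rraga. Nearest to Plvap were the histone gene H2ac21 (0.0726), the transcription factor Tbx18 (0.166), which is known in pericytes and smooth muscle cells, Slc5a6, Lpar4 and Dact1. Cav1 had no neighbour as close: Zfp367 (0.329) and the endothelial adhesion molecule Esam (0.367) came first, followed by Alas1, Syde1 and Il6st. A second probe disagreed at P5 against adult for Vps13b (-0.25 against -0.79), Dact1 (0.46 against 0.05) and Alas1 (0.58 against -1.34). With 2 replicates and 3 ages many genes share a course, so a short distance is a description only.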

How the data were processed

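Each two-colour array has 1 deposited Agilent Feature Extraction file. Per the file headers, spot signals, local backgrounds and processed signals are linear intensity values; the deposited log10 ratios were not used. Headers name version 10.5.1.1 and the design build mm9, and the submitters' processing notes name version 12.6.

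Ages and dyes came from the labels. Median signals (the plan's mean signals are not used here) were corrected with normexp (offset 50). On 2 arrays, 11 spots with a signal over 100 below background took the median background for this step and were then left out. Log2 ratios made from the deposited intensities went through loess within each array (span 0.3, fitted without controls and flagged spots), and spots flagged as outliers were dropped. Levels are log2 channel values after Aquantile scaling, with no dye term. P5 levels thus come from Cy5 alone and those of P10 and adult from both dyes, so differences between levels need not equal the ratios. A probe was kept if every channel of some age was well above background (27190 of 39429), and the brightest probe stood for its gene. RefSeq gave symbols to 27427 probes. Least squares per slide gave P5 minus adult, P10 minus adult and a dye term. limma 3.58.1 (R 4.3.3) then fitted age and replicate over 21941 genes, with Benjamini-Hochberg adjustment within a comparison at 0.05, in a script checked on simulated data. Replicate numbers pair samples because each replicate is 1 slide holding all 3 ages, so values per replicate are values within a slide. Dye-exchanged arrays ran opposite to their partners over the 21941 genes tested (r = -0.89 and r = -0.92). Of these 21941, 15592 had a gene symbol. The others were counted as genes under the identifier of the probe's target, so shares and medians over all genes include them.

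The members, the lists and the rule for named genes (members, the 5 genes nearest to Mfsd2a, Plvap and Cav1, and the 2 lowest and 2 highest called genes of each list) were chosen with earlier results of these data known. Pacsin2 and Pacsin3 were named besides, as relatives of Pacsin1. Alternatives were other background corrections, processed signals, median centring, no filter, the mean of a gene's probes, fewer arrays or replicates, and no replicate block. Precision is limited by there being 2 replicates per age.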

Additional observations from a re-analysis of the deposited data

How the results depend on the processing

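The 36 member values (9 genes in 4 contrasts) were recomputed under 9 alternatives, of which 1 was added after seeing the data, which gave 324 values. Of these, 279 kept their direction and their side of the threshold, 29 lost and 7 gained the call, and 9 changed sign. In P5 against adult the same count, 8 members lower, was called under each alternative. The sign changes were all of values that were not called: Plvap in P5 against adult, at -0.0266 with normexp fitted on all spots, -0.41 with median centring, -0.0527 with no replicate block and -0.13 without the 2 arrays that hold faulty backgrounds; Mfsd2a in P10 against adult, at 0.0026 with median centring; and Ehd4 in P10 against adult, at 0.0571 with the processed signals, 0.07 with median centring, 0.0157 with the mean of its probes and 0.08 without the 2 arrays.

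Members called in P10 against adult fell from 3 to 1, Cavin2, with normexp on all spots, with median centring and without the 2 arrays. In P10 against the mean of P5 and adult they fell from 6 to 0, 3 and 3 with normexp on all spots, with the processed signals and without the 2 arrays. With normexp fitted on all spots, limma called 0 members and 0 genes in P5 against P10, where 9 members and 7066 genes had an unadjusted p below 0.05 and the members' adjusted p-values lay between 0.0534 and 0.0982; in P10 against the mean it called 0 genes, with 6 members and 3388 genes at an unadjusted p below 0.05. The 11 faulty spots enter that fit by its construction.

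Over all genes, P5 against adult went from 11647 calls to 5379 with normexp on all spots. P10 against adult went from 3843 to 257 with normexp on all spots, 1279 with median centring, 1885 without the 2 arrays, 7578 with no replicate block and 9968 with no block and all 8 ratios. P5 against P10 went from 9034 to 5611 without the 2 arrays and 13670 with no replicate block. P10 against the mean went from 2565 to 1394 with the processed signals, 906 with median centring, 1118 without the 2 arrays, 9294 with no replicate block and 9482 with all 8 ratios. Median centring moved the median of all genes in P5 against adult from 0.09 to -0.07 and in P5 against P10 from 0.06 to -0.12, and the share of called genes that were higher from 56.6% to 46.6% and from 55.8% to 39.9%. In P10 against the mean that share went from 52.7% to 78% with median centring and 63.5% with the processed signals. With no replicate block, Cavin3 was also called higher in P10 against adult, and 8 members (9 with all 8 ratios) in P10 against the mean; no dye term could be estimated once the exchanged arrays had been averaged, because P5 always carried Cy5. Both fits with no block count arrays of the same RNA as further replicates. Leaving out a replicate leaves the other replicate's value, printed in the report, with no test. The causes of these changes were not tested.

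The dimmer Cavin1 probe was well above background in 2 of 4 P5 channels, and the part of its low signal in its ratio was not tested.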
